A study of Mus musculus with 39 samples.

Results

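The rows examined here are the array's mouse miRNAs from miR-680 to miR-721, leaving out miR-708. The rule goes by name and takes every row called mmu-miR followed by a number in this range, with any letter, arm or star suffix. The rule found 42 of the 650 rows that are not controls. The other rows comprised 569 further mouse (mmu) miRNAs and 39 rows with other names.

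The study followed mouse embryonic stem (ES) cells under factors used to direct them to definitive endoderm, the germ layer that gives rise to liver and pancreas. Each RNA sample was hybridised in 1 colour to an Agilent mouse miRNA array, and 39 arrays formed 13 groups of 3. The ES group held undifferentiated cells. The other 12 groups were collected on day 1, 3 or 5, after 100 ng/ml Activin A, after 50 ng/ml Wnt3a, after both factors at these doses, or as controls in the same medium without growth factors. According to the methods, the cells came from the TCL-1 line of 129/SvJae mice, were kept on mouse embryonic fibroblast feeders and were freed of feeders on gelatin before differentiation. Whether the ES group was freed of feeders is not stated. The labels number the replicates but do not say that they were separate cultures, so p-values may measure technical spread only. Precision is limited by how many arrays each group had.

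A miRNA is a short RNA that guides Argonaute proteins to messenger RNAs, and bases 2 to 8, the seed, carry most of the pairing with a target. Activin A acts through Smad proteins and Wnt3a through beta-catenin. The registry numbers reflect the order of naming, not a gene family, and some entries of this range have been traced to other RNAs: miR-720 to a transfer RNA and miR-712 to the ribosomal RNA precursor.

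Mature sequences were available for 26 of the 42 members in RefSeq's annotation of GRCm38.p6, and for 10 of the 20 members that entered the tests. The sequences shown are those of members that differed by more than 2-fold, at an adjusted p under 0.05, between a pair of groups compared after them, with the seed in capitals, from the 5′ end to the 3′ end.
miR-690: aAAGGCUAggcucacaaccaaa
miR-721: cAGUGCAAuuaaaagggggaa
miR-705: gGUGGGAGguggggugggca
miR-710: cCAAGUCUuggggagaguugag
miR-711: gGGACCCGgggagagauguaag
miR-697: aACAUCCUgguccuguggaga
miR-706: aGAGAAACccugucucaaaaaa
miR-718: cUUCCGCCcggccgggugucg
miR-681: cAGCCUCGcuggcaggcagcu
No pair of the 26 members shared a seed. The seed of miR-721 is that of the reference's miR-130a-3p, miR-130b-3p, miR-130c, miR-301a-3p, miR-6341 and miR-6389, and that of miR-705 is shared by miR-6922-5p, miR-6993-5p and miR-7008-5p.

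The 9 sequences lie at separate places in the genome, a pair of them on the same chromosome. miR-690 lies at chr16:28599940-28599961 on the minus strand, within the bounds of Fgf12, a fibroblast growth factor homologous factor. miR-721 lies at chr5:136375777-136375797 on the minus strand, within Cux1, a homeodomain transcription factor. miR-705 lies at chr6:85336341-85336360 on the minus strand, within Rab11fip5, an effector of the small GTPase Rab11. On the same chromosome and strand, miR-706 lies at chr6:120034290-120034311, within Wnk1, a kinase that regulates ion transport. miR-710 lies at chr8:64514401-64514422 on the minus strand, within no gene of the table other than its own. miR-711 lies at chr9:108969970-108969991 on the plus strand, within Col7a1, the collagen of anchoring fibrils. miR-697 lies at chr4:124731768-124731788 on the plus strand, within Sf3a3, a splicing factor subunit. miR-718 lies at chrX:74023857-74023877 on the minus strand, within Irak1, a kinase of interleukin-1 signalling. miR-681 lies at chr12:69763923-69763943 on the minus strand, within Cdkl1, a cyclin-dependent kinase-like kinase. The table gives gene bounds only, so exon, intron and UTR are not stated here. The members were rich in G or C to different degrees: miR-705 held 70.0% G, miR-711 50.0% and miR-706 13.6%. The median GC content was 59.0% for the 10 sequenced members detected on at least 19 arrays, 48.9% for the 16 detected on fewer than 3 arrays, and 52.2% for the 136 other mouse miRNAs with a sequence, given as a description only.

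Detection divided the members into sets. A row counts as detected on an array where the scanner software set its detection flag, and every undetected value was deposited as 0.1. miR-689, miR-690, miR-709, miR-712, miR-720 and miR-721 were detected on all 39 arrays, which is 14.3% of members against 23.9% of the other mouse rows. Another 17 members (40.5%, against 33.9% of the other mouse rows) were detected on none: miR-682, miR-683, miR-686, miR-687, miR-688, miR-693-3p, miR-693-5p, miR-694, miR-695, miR-698, miR-699, miR-701, miR-704, miR-707, miR-713, miR-717 and miR-719. miR-696 was detected on 2 arrays, and miR-684, miR-691, miR-692 and miR-703 on 1 each. Detection on 1 or 2 arrays was found in 11.9% of members and 6.85% of the other mouse rows. The remaining 14 were detected on 19 to 38 arrays: miR-714 on 38, miR-680 and miR-706 on 36, miR-705 and miR-715 on 35, miR-702 on 33, miR-697 on 30, miR-712* on 27, miR-685 on 26, miR-681, miR-710 and miR-711 on 24, miR-718 on 21 and miR-700 on 19. Detection on 19 arrays or more was as frequent among members as among the other mouse rows, at 47.6% of each.

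Members were detected more often late in the culture. The 15 arrays of ES cells and day 1 detected 9 to 16 members, with a median of 12, and the 24 arrays of days 3 and 5 detected 17 to 23, with a median of 20. The other mouse rows moved the same way: a median of 36.2% of them was detected on the early arrays and 49.9% on the late ones, against 28.6% and 47.6% of the members. The limit of detection moved too. The lowest detected log2 level on an array lay between 3.62 and 5.10 on the early arrays and between 1.00 and 3.49 on the late ones, so absence from the early arrays carries little weight for a dim row. miR-681, miR-710 and miR-711 were detected on all 24 late arrays and on none of the 15 early ones, a pattern that 3 members (7.14%) and 15 other mouse rows (2.64%) had.

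The members' share of the summed mouse miRNA signal, without miR-709 and miR-720, followed the days as well. It was 1.18% to 1.46% on the ES arrays, 0.271% to 0.528% on the 3 control arrays of day 1, 2.10% to 2.25% on those of day 3 and 3.20% to 3.28% on those of day 5. In this share the control groups of the 3 days did not overlap, and day 1 lay below the ES cells. With miR-709 and miR-720 included, ES arrays (5.30% to 6.02%) and day 1 controls (5.09% to 5.35%) overlapped. Most of the members' signal on these arrays came from miR-709 and miR-720. The share of all members was 6.82% to 7.58% in controls of day 3 and 8.56% to 9.53% in those of day 5.

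**Figure D1:**
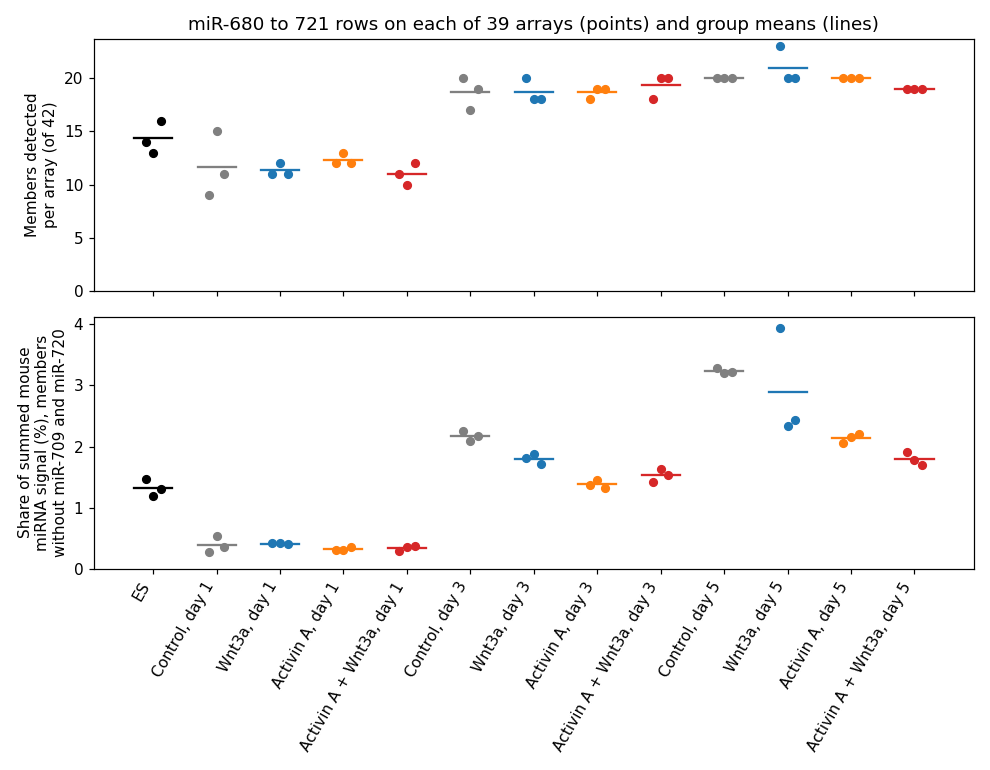
The upper panel plots the number of the 42 members detected on each array and the lower panel the percent of summed mouse miRNA signal that came from members other than miR-709 and miR-720, with arrays as points and group means as lines. The day 1 arrays lie lowest in share, between 0.271% and 0.528%, and 1 Wnt3a array of day 5 lies highest at 3.94%.

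The plot of detection and share also shows that the Wnt3a arrays of day 5 stood apart from each other. Replicate 1 had a share without miR-709 and miR-720 of 3.94%, against 2.33% and 2.43% on the other two, and detected 23 members where they detected 20. On replicate 2 all members together made up 16.3% of the summed signal, against 8.16% and 8.91%, and its summed mouse signal was 171401, against 86125 on the array of this group with the lowest sum. Both arrays enter the day 5 results, so the count of that day is also given without each of them.

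Levels are log2 signals after quantile normalization across the 39 arrays, with 2 as the lowest signal allowed, so an undetected row stands at 1.00. Of the 42 members, 20 had detection on at least 2 of 3 arrays of a group and entered the fit of all groups. Members enter through the groups where they are bright, so counts over them support nothing by themselves. Adjusted p-values come from limma over all 373 rows tested. In the test over the 13 groups, 18 of 20 members had an adjusted p under 0.05, close to the 88.5% of all rows tested that did. The others were miR-700, with an adjusted p of 0.294, and miR-715, with 0.697. The group means of miR-689 ranged from 7.02 to 8.84, those of miR-690 from 6.52 to 9.64, those of miR-709 from 10.16 to 11.75, those of miR-712 from 4.87 to 6.03, those of miR-720 from 10.08 to 11.96 and those of miR-721 from 5.19 to 8.43. These ranges are of 1 row each and are not compared between rows.

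The control arrays give the course of the culture without added factors. From ES cells to day 1, members fell where they differed: 7 of 20 were lower by more than 2-fold with an adjusted p under 0.05, and 0 were higher. Of all 373 rows, 16.6% were called in either direction, 8.04% lower and 8.58% higher, and of the other mouse rows 20 of 343 (5.83%) were lower. Of the 30 rows lower in all, 7 were members and 20 other mouse rows. The rest were among the few tested rows with other names, so the fall was not particular to the members. By limma without adjustment, 8 of 20 members had a p under 0.05, where 35.9% of all rows did. The 7 were miR-685, miR-690, miR-697, miR-706, miR-712*, miR-714 and miR-721. The median difference was -0.82 over the 20 members and 0.00 over all rows tested.

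miR-721, which shares its seed with the miR-130 and miR-301 miRNAs, had levels of 8.32, 7.91 and 8.07 in ES cells and 6.14, 6.19 and 6.21 in control cells on day 1. Every ES array lay above every day 1 array. The difference, day 1 minus ES, was -1.92 ± 0.23 (SE, 3 arrays a group), with an adjusted p of 1.31e-07. miR-690 had levels of 8.40, 8.11 and 8.26 in ES cells and 6.55, 6.90 and 6.56 on day 1, again without overlap. Its difference was -1.59 ± 0.22, with an adjusted p of 1.76e-06.

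The 5 other called members were undetected on some or all day 1 control arrays. miR-712* stood between 5.59 and 5.87 in ES cells and was undetected on all 3 control arrays of day 1, where it was at least 2.33-fold lower (adjusted p = 1.39e-20). This bound sets the ES mean against the lowest level detected on each day 1 array, since the fitted difference of an undetected row depends on the lowest signal allowed. miR-712, the row of the same number without the star, moved little, with a mean of 5.93 in ES cells and 5.77 in day 1 controls. miR-714 had 7.60, 7.52 and 7.60 in ES cells and, on the 2 control arrays of day 1 that detected it, 4.46 and 4.68. It was lower on each of the 3 day 1 arrays. miR-697 and miR-706 were detected on 3 ES arrays and on 1 control array of day 1 each, with adjusted p-values of 0.00192 and 0.00144 that compare ES levels in part with the lowest signal allowed. The ES levels of miR-706, 5.24, 5.21 and 4.86, lay around the lowest level of 5.07 detected on 1 of the 2 day 1 arrays without it, so no fold is given. miR-685 was detected on 2 ES arrays, at 4.89 and 4.17, and on no day 1 array, so its groups overlapped at the limit of detection and no fold is given.

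All ES and day 1 control arrays lay on the same slide, so these differences are within a slide. With 9 members and 153 other mouse rows detected on all arrays of both groups, 8 of the 9 members lay below the other rows' median difference under quantile normalization and under each of 4 other scalings or backgrounds. Scaling to the 75th percentile over rows detected on all arrays moved that median from 0.15 to 0.37, and the members' median was then -0.98 in place of -0.99. With normexp the members' median was -0.40, against 0.05 in the other rows, and limma called 0 members, with each of the 7 at an adjusted p under 0.05 but under 2-fold.

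Marker miRNAs also differed between the control groups. The list of 5 fibroblast miRNAs, of which miR-199a-3p was the brightest, made up 0.316% to 0.368% of the summed signal on the ES arrays and 0.679% to 0.757% on the day 1 control arrays, and on the control arrays of day 3 at most 0.0349%. Of its defining members miR-145 was undetected in ES cells and in all controls. Markers of ES cells, 7 miRNAs of the miR-290 cluster, made up 52.9% to 55.0% on ES arrays, 54.2% to 56.2% on day 1 and 18.2% to 19.4% on day 3 in the controls. The 5 miRNAs of primed epiblast made up at most 1.56% on ES arrays, 0.613% to 0.646% on day 1 and 7.41% to 7.78% on day 3. The 4 neural miRNAs made up at most 0.0215% on ES arrays and 0.0279% on day 1, and 0.226% to 0.312% on day 3. The list of 6 endodermal and epithelial miRNAs made up 0.227% to 0.254%, 0.478% to 0.491% and 0.457% to 0.497%. The part of the feeder cells, or of a different mixture of cells, in the members' levels was not tested. In these bulk samples, fewer cells of a type and less RNA per cell cannot be told apart.

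From day 1 to day 3, control cells showed the opposite direction in most members that differed. In this comparison 12 of 20 members were called, where 49.3% of all rows were: 11 higher, where 32.2% of all rows were higher, and 1 lower, where 17.2% were. The 11 were miR-681, miR-685, miR-689, miR-690, miR-702, miR-705, miR-710, miR-711, miR-712*, miR-714 and miR-721, and the member that fell was miR-718. Of the 120 rows higher in all, 104 were other mouse rows (30.3% of those tested). Rows with other names were higher too, so the rise was not particular to the members. The median difference was 1.83 over the members and 0.50 over all rows, both with undetected values at the lowest signal allowed. Over rows detected on all arrays of both days it was 1.57 for 8 members and -0.11 for 158 other mouse rows. With normexp these medians were 0.72 and -0.03, and most of the calls were lost. This comparison shares the day 1 control arrays with the comparison with ES cells, so a low day 1 level enters both.

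miR-721 had levels of 8.36, 8.22 and 8.26 on day 3, all above the day 1 levels of 6.14 to 6.21. The difference, day 3 minus day 1, was 2.10 ± 0.23 (SE), with an adjusted p of 4.89e-09. miR-690 had 8.66, 8.66 and 8.32 on day 3, also above each day 1 array. It differed by 1.88 ± 0.22, with an adjusted p of 1.82e-08. For miR-721 and miR-690 the day 3 levels lay in or near the range of the ES arrays.

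miR-689 had levels of 6.95, 7.52 and 7.10 on day 1 and 8.57, 8.57 and 8.52 on day 3. The days did not overlap, and the difference was 1.37 ± 0.17 (adjusted p = 4.10e-08). In ES cells miR-689 stood at 8.07, 8.14 and 8.32, above day 1, with a difference that stayed under 2-fold (-0.99). miR-705, the member richest in G of those sequenced, had 5.21, 5.03 and 4.84 on day 1 and 7.10, 7.22 and 7.22 on day 3. All day 3 arrays were higher, by 2.15 ± 0.79 (adjusted p = 0.0196), a call that was lost without control replicate 3 of day 1 (2.06, adjusted p = 0.0514) and with a floor of 1 before normalization (2.15, adjusted p = 0.0644). With slide as a block the difference was 5.84 (adjusted p = 0.00107), a size set in part by the lowest signal allowed, since 4 of the 7 day 1 arrays on the slide shared with a day 3 control did not detect miR-705.

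Of the members undetected on day 1, some were higher on day 3 by a bound, and for others the limit of detection hides whether they rose. miR-685 had 5.50, 5.35 and 5.65 on the control arrays of day 3 and was at least 1.95-fold higher than on day 1. miR-712* had 5.26, 5.53 and 5.29 and was at least 1.77-fold higher, while miR-712 had a mean of 5.85 on day 3 and 5.77 on day 1. miR-710, at 4.46, 4.60 and 4.15 on day 3, miR-711, at 3.71, 3.95 and 3.58, and miR-681, between 2.71 and 3.64, had means under the mean of the lowest levels detected on the 3 day 1 arrays, which were 5.07, 3.93 and 4.60, so no fold is given for them. Their adjusted p-values, 1.31e-12, 1.63e-10 and 6.59e-05, compare day 3 levels with the lowest signal allowed. For miR-711 and miR-681 the call was lost when log2 signals were quantile-normalized (adjusted p = 0.347 and 0.790). That of miR-681 was also lost with a lowest signal of 8 (0.35, adjusted p = 0.163).

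miR-714 had 6.80 on each of the 3 day 3 arrays, above the 4.46 and 4.68 of the 2 day 1 arrays that detected it. The fitted difference of 3.42 (adjusted p = 4.86e-07) is set in part by the undetected array, which entered at the lowest signal allowed. Within the slide shared with treated arrays of day 1, control replicate 1 of day 3 was higher by 1.80 than Wnt3a, by 1.98 than Activin A and by 2.03 than the combination. miR-702 had a mean of 4.24 ± 0.61 (SD, n = 3) on day 3 and was detected on 1 control array of day 1, at 4.57, within the day 3 range. Its difference of 2.04 (adjusted p = 0.0138) turned to -0.10 with slide as a block, so no direction can be read for miR-702. miR-718 had 5.19, 4.11 and 4.93 on day 1 and 2.21 and 2.88 on the 2 day 3 arrays that detected it. It was lower on day 3 by -2.71 (adjusted p = 4.58e-04), and with slide as a block by -0.56 (adjusted p = 0.855), where none of the 7 day 1 arrays on the shared slide detected it.

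The control arrays of day 1 and day 3 lay on different slides, except that control replicate 1 of day 3 shared a slide with 7 treated arrays of day 1. Within that slide miR-690 was 8.66 on the day 3 array and 6.86, 6.66 and 6.54 in the Wnt3a, Activin A and combined groups of day 1. miR-721 was 8.36 against 5.82, 4.50 and 5.19. Both members were higher on the day 3 array than in each day 1 group of its slide. With slide as a block in the fit of all arrays, the differences of the controls were 1.77 for miR-690 (adjusted p = 0.00346), 3.34 for miR-721 (1.06e-07) and 0.76 for miR-689 (0.0495), the last under 2-fold. For miR-685 and miR-712*, undetected on all day 1 arrays, such a difference is set by the lowest signal allowed and is not given.

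**Figure D2:**
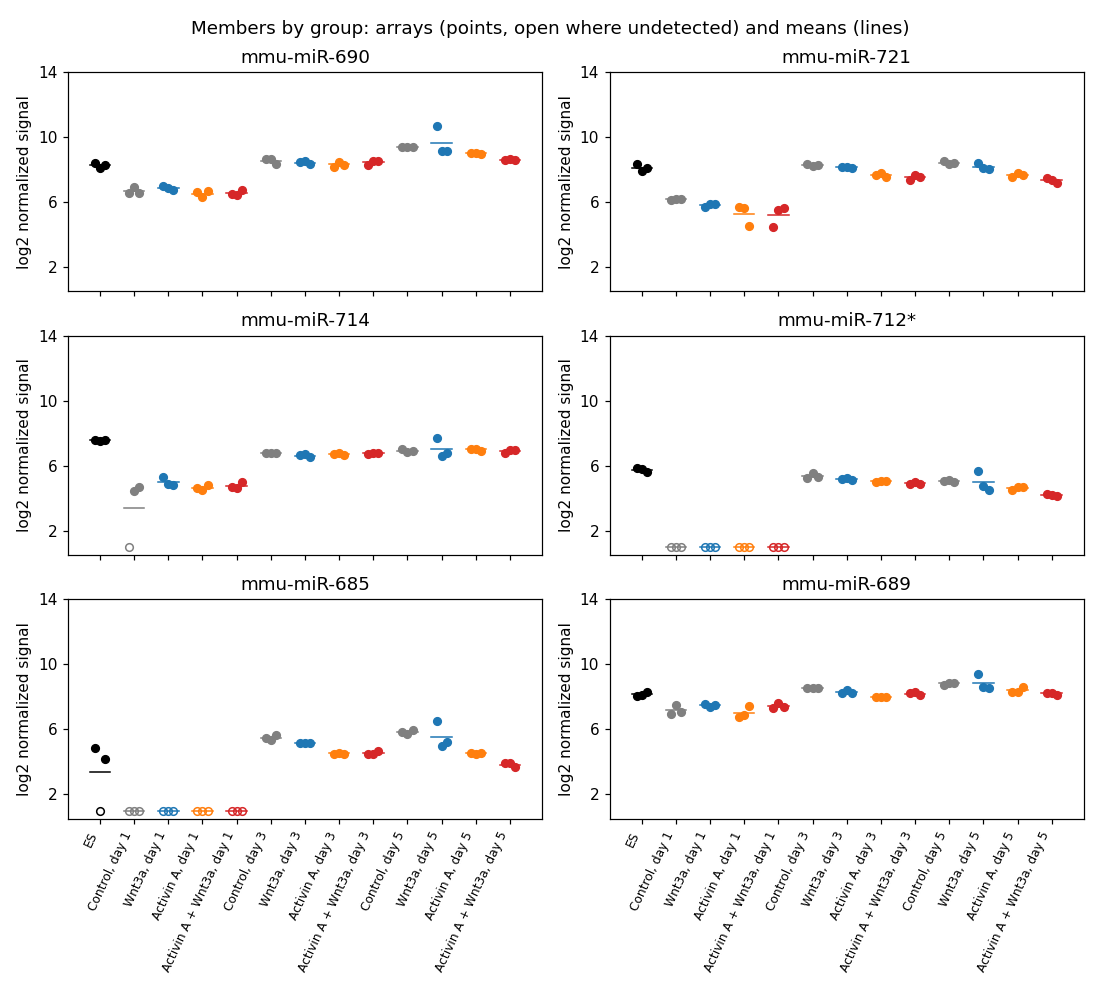
Log2 normalized signals of 6 members in the 13 groups, with a point for each array, open where the row was undetected, and a line at each group mean. miR-721 stands near 8 in ES cells, at 6.14 to 6.21 in day 1 controls and at 8.22 to 8.36 in day 3 controls, and miR-712* is undetected on every day 1 array.

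As the plot of 6 members by group shows, the low day 1 level was not confined to the controls. miR-721 had group means of 5.82 ± 0.09 (SD, n = 3) under Wnt3a, 5.28 ± 0.67 under Activin A and 5.19 ± 0.66 under the combination on day 1. miR-690 had 6.86 ± 0.12, 6.52 ± 0.19 and 6.54 ± 0.15. miR-685 and miR-712* were undetected on all 12 arrays of day 1, and miR-714 stood at 4.99 ± 0.30, 4.64 ± 0.17 and 4.77 ± 0.21. For miR-721, miR-690 and miR-714 the mean of each day 1 group lay below that of every group of days 3 and 5. For miR-685 and miR-712* the limit of detection on day 1 leaves this unknown.

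From day 3 to day 5 few members changed in the controls. Of 20 members, 2 were called, both higher, where 18.5% of all rows were called, 10.2% higher and 8.31% lower. Without adjustment, 5 of 20 members had a p under 0.05 by limma, where 45.6% of all rows did. miR-710 rose from 4.46, 4.60 and 4.15 to 5.55, 5.63 and 5.53, with no overlap. Its difference was 1.16 ± 0.25 (SE), with an adjusted p of 3.48e-04. miR-711 rose from 3.71, 3.95 and 3.58 to 4.86, 4.82 and 4.91, also with no overlap. It differed by 1.11 ± 0.25, with an adjusted p of 5.86e-04. No slide held control arrays of both days, and the slides of day 5 share no group with those of the day 3 controls, so slide and day cannot be told apart here. Marker shares moved between these groups too. The neural list made up 0.226% to 0.312% on day 3 and 1.04% to 1.33% on day 5. The list of ES cells made up 18.2% to 19.4% and 7.97% to 8.41%, and primed epiblast 7.41% to 7.78% and 2.77% to 2.89%. The endodermal and epithelial list made up 0.457% to 0.497% and 0.201% to 0.203%. The part of a different mixture of cells was not tested.

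**Figure D3:**
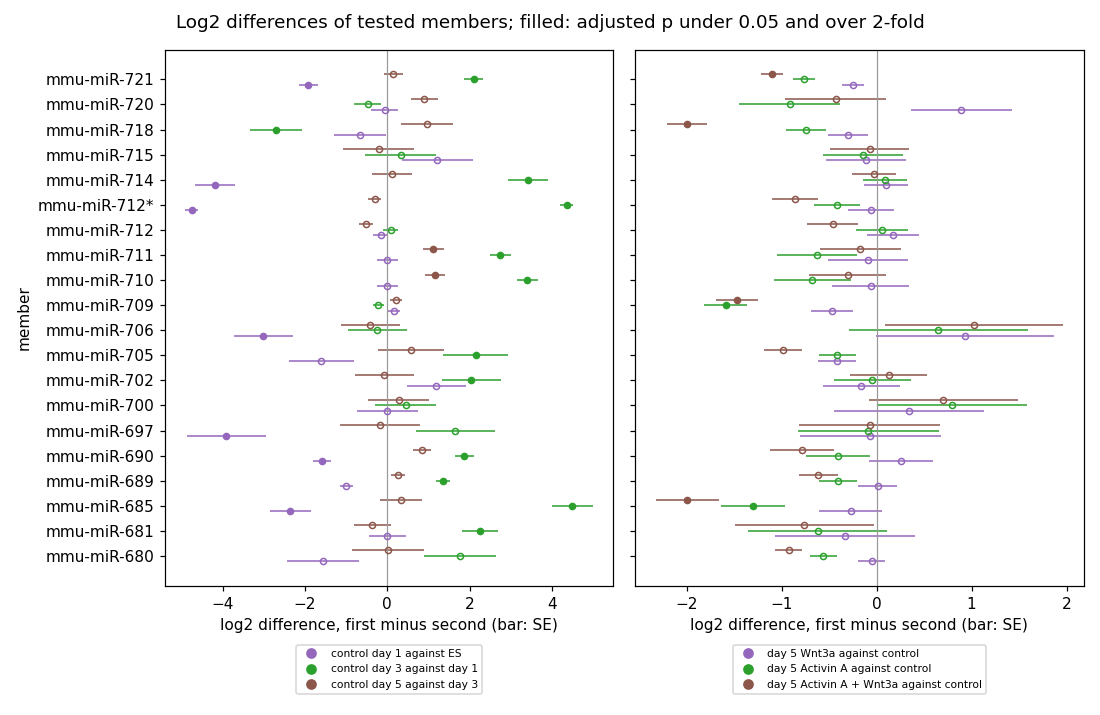
Log2 differences of the 20 tested members between control groups (left) and between the treatments and the control of day 5 (right), with SE bars and filled points where the adjusted p was under 0.05 and the difference over 2-fold. On the left, filled points lie below 0 for day 1 against ES and, except for miR-718, above 0 for day 3 against day 1; for rows undetected in a group the point depends on the lowest signal allowed.

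The plot of log2 differences sets the course of the controls beside the treatments of day 5, where all filled points lay below 0. The treatments ask which rows Activin A, Wnt3a or their combination moved from the control of the same day. The 3 treatments of a day share its control arrays. Among 14 members tested on day 1, 1 was called in the test over the treatments, where 4.17% of 240 rows were. This was miR-718. Its levels in the controls were 5.19, 4.11 and 4.93, and it was undetected on all arrays with Wnt3a and with both factors. It was at least 1.57-fold lower with Wnt3a (adjusted p = 0.0212) and at least 1.5-fold lower with both (adjusted p = 0.0183). These bounds are of means only. The control level of 4.11 lay under the lowest levels detected on Wnt3a arrays (4.295 and 4.35) and combined arrays (4.398 and 4.263). The groups thus overlapped at the limit of detection. Of all rows, 1.25% were lower and 2.92% higher with Wnt3a, and 1.67% lower and 3.75% higher with both factors. With Activin A it was detected on 1 of 3 arrays, at 4.93. The controls lay on another slide than the Wnt3a and combined arrays. With slide as a block the difference was -1.78 in each (adjusted p = 0.703 and 0.619), in place of -3.74. Both sizes are set in part by the lowest signal allowed. Both calls were also lost with scaling to the 75th percentile over all rows (adjusted p = 0.1 and 0.0663). With quantile normalization within the day they were lost too (adjusted p = 0.113 and 0.102). Of the members, miR-706 passed the contrast of both factors with the control (adjusted p = 0.0382), as 3.75% of all rows did in this direction, but not the test over the 3 treatments. It was undetected on 2 of 3 control arrays, where the lowest detected levels were 5.07 and 4.60, against a mean of 4.61 with both factors, so no size is given.

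On day 3, 2 of 20 members were called, where 24.8% of 326 rows were. miR-709 had levels of 11.43, 11.43 and 11.75 in the controls. With Activin A it had 10.38 on each of the 3 arrays, and with both factors 10.27, 10.38 and 10.27. All 6 arrays with Activin A lay below the controls. It was the 1 member lower in each of these contrasts, where 6.44% of all rows were lower with Activin A and 7.36% with both. The differences were -1.15 ± 0.08 (SE, adjusted p = 1.48e-06) for Activin A and -1.23 ± 0.08 (adjusted p = 8.59e-07) for both factors. With Wnt3a alone miR-709 stood at 10.98 on each of the 3 arrays, between the controls and the arrays with Activin A. Wnt3a alone gave 0 called members by limma on day 3, where 3.07% of all rows were higher and 0% lower. At an unadjusted p under 0.05 there were 9 of 20 members and 44.8% of all rows. Equal values on arrays of a group are a property of quantile normalization, which gives a bright row the same value wherever it has the same rank, so the SD of such a group understates its spread. Within the slide that held 2 control and all Activin A arrays of day 3, the difference was -1.21. The combined arrays of day 3 lay on another slide than every control of that day and were scanned in another session. For both factors, slide and treatment therefore cannot be told apart on day 3. Scaled to the 75th percentile of each array instead, the differences were -0.70 and -0.81 over rows detected on all arrays and -0.57 and -0.88 over all rows, of the same sign and under 2-fold.

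The other member called on day 3, miR-706, was detected on 2 of 3 control arrays, with a mean of 1.85 ± 0.77 (SD, n = 3), and stood at 2.86 ± 0.21 with both factors. As for miR-709, those arrays shared no slide with the controls. miR-706 was the 1 member higher with both factors, where 12.9% of all rows were. Activin A alone gave 0 higher, where 12.6% were. With Activin A alone miR-706 stood at 2.81 ± 0.12 (SD, n = 3), near its level with both factors and just short of 2-fold over the control. The difference with both factors, 1.01 (adjusted p = 0.0352), lies near the lowest signal allowed. It fell to 0.01 with a lowest signal of 8 (adjusted p = 0.369). The median difference of the members on day 3 was -0.34 with Activin A, -0.34 with both and -0.21 with Wnt3a, against -0.04, -0.03 and -0.01 over all rows.

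Marker miRNAs differed between these groups of day 3 too. The 4 neural miRNAs made up 0.226% to 0.312% of summed signal in the controls, 0.0911% to 0.103% with Activin A and 0.0502% to 0.0630% with both. The 6 endodermal and epithelial miRNAs made up 0.457% to 0.497%, 1.32% to 1.36% and at most 1.30%. Their share was higher, and the neural share lower, on every array with Activin A than on every control array. With Activin A alone the neural members did not all go the same way. miR-219 had a mean of 6.74 in the controls and was undetected with Activin A, and miR-124 had 6.02 and 3.93. miR-9 was higher with Activin A, with a mean of 5.86 against 5.27, and so was miR-9*, with 4.52 against 2.53. The list of ES cells made up 18.2% to 19.4% in the controls, 32.4% to 33.2% with Activin A and at most 33.7% with both, and primed epiblast at most 7.78%, 11.1% and 12.2%. The fibroblast list made up at most 0.0349% in the controls, 0.00824% with Activin A and 0.0164% with both, and its members miR-143 and miR-145 were undetected on all these arrays. The part of a different mixture of cells in the lower levels of miR-709 on day 3 was not tested.

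On day 5, 4 of 20 members were called in the test over the treatments, where 30.7% of 368 rows were. The 4 were miR-685, miR-709, miR-718 and miR-721. All 4 were lower with both factors, where 14.9% of all rows were lower and 15.5% higher, and 2 of them with Activin A, where 11.4% were lower and 13.6% higher. Without Wnt3a replicate 1, 5 members were called, and without Wnt3a replicate 2, 4 were, and over all arrays left out in turn the count ranged from 4 to 6.

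miR-709 had 11.75 on each control array of day 5. With Activin A it had 10.16 on each of the 3 arrays, and with both factors 10.64, 10.04 and 10.16. The 6 arrays with Activin A lay below the controls. The differences were -1.59 ± 0.22 (SE, adjusted p = 3.54e-04) and -1.47 ± 0.22 (adjusted p = 5.33e-04). Within the slide that held 3 control and 2 Activin A arrays, the difference for Activin A was -1.59. With each array scaled to its 75th percentile over rows detected on all arrays, the differences were -0.80 and -1.02. Over all rows they were -0.58 (adjusted p = 0.0486) and -0.79 (adjusted p = 0.0105), both under 2-fold.

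miR-685 had 5.81, 5.72 and 5.97 in the controls of day 5. With Activin A it had 4.53, 4.50 and 4.57, and with both factors 3.91, 3.91 and 3.71. The 3 groups did not overlap. The differences from the control were -1.30 ± 0.33 (SE, adjusted p = 0.0132) and -1.99 ± 0.33 (adjusted p = 9.91e-04). With slide as a block they were -1.32 (adjusted p = 0.0363) and -2.05 (adjusted p = 0.0554), and within the slide that held control and Activin A arrays -1.32. On day 3 miR-685 stood at 5.50 ± 0.15 (SD, n = 3) in controls, 4.52 ± 0.05 with Activin A and 4.54 ± 0.09 with both, short of 2-fold.

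miR-721 had 8.52, 8.36 and 8.40 in the controls of day 5 and 7.46, 7.33 and 7.17 with both factors. The groups did not overlap. The difference was -1.10 ± 0.12 (SE, adjusted p = 4.57e-05), and -0.99 (adjusted p = 0.00186), just under 2-fold, when scaled to the 75th percentile over all rows. With Activin A its levels were 7.54, 7.76 and 7.67, also below the controls, with a difference under 2-fold. miR-718 had 3.13, 2.71 and 3.15 in the controls and was undetected on all 3 arrays with both factors. It was at least 3.25-fold lower there (adjusted p = 4.57e-05), a call that was lost with a lowest signal of 8 (adjusted p = 0.0529), close to its own level, and with quantile normalization of log2 signals, where the difference was 0.00 (adjusted p = 1).

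Wnt3a alone gave 0 called members on day 5 by limma, where 2.72% of all rows were called higher and 1.09% lower. At an unadjusted p under 0.05 there were 0 members and 20.7% of all rows. The groups' spread was wide there: miR-690 stood at 10.64, 9.16 and 9.13 on the Wnt3a arrays of day 5 and at 9.38 on each control array. miR-720 stood at 11.59, 13.32 and 10.98 on the Wnt3a arrays, against 11.27, 10.81 and 11.13 in the controls. In each case 1 Wnt3a array lay far above the other two, so a difference of this size could not be shown with these arrays. On day 5 the members' median difference was -0.42 under Activin A, -0.54 under the combination and -0.06 under Wnt3a alone, against -0.03, 0.00 and -0.01 over all rows.

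**Figure D4:**
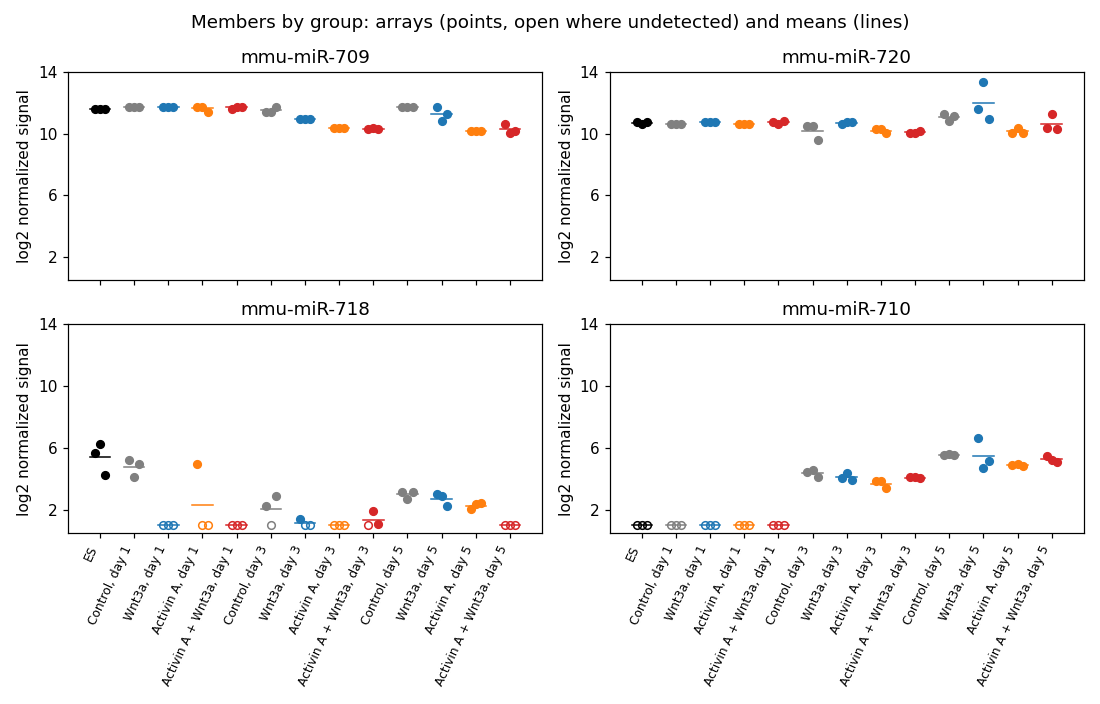
Log2 normalized signals of miR-709, miR-720, miR-718 and miR-710 in the 13 groups, with a point for each array, open where undetected, and a line at each group mean. miR-709 is at 11.75 in the day 5 controls and at 10.04 to 10.64 on the 6 arrays with Activin A, and 1 Wnt3a array of day 5 lies at 13.32 for miR-720.

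The plot of miR-709, miR-720, miR-718 and miR-710 shows both the lower miR-709 levels with Activin A on days 3 and 5 and the Wnt3a array that stands apart on day 5. Whether the combination differed from Activin A alone was asked after the values were seen. On day 5, 1 member was called, miR-718, which was at least 1.94-fold lower with both factors (adjusted p = 0.00802), where 0.815% of all rows were lower and 1.9% higher. With slide as a block 0 members were called. On day 1 limma called 0 members, where 0.833% of all rows were higher and 0% lower, and 1 of 14 members had an unadjusted p under 0.05, where 27.1% of all rows did. On day 3 it called 0, where 1.84% were higher and 2.15% lower, and 6 of 20 members had an unadjusted p under 0.05, where 38.7% of all rows did. No slide held arrays of both groups on day 3, so slide and treatment cannot be told apart in that comparison.

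The identity of these groups has a limit. In the authors' processed table, 18 of 39 columns, the 9 of Activin A and the 9 of both factors, rank the rows exactly as the scanner values of the array with the same day and number in the other group do, and 21 columns rank them as their own array does. The files do not state which of the 2 labellings is right. It touches results called with only one of the 2 treatments, such as miR-721 and miR-718 on day 5. Results called with both, such as miR-709 and miR-685, would stay called in both groups. Their sizes, and the statements on shared slides, would pass to the other treatment. Exchanging the labels would also reverse the sign of the difference between the combination and Activin A, so that of miR-718. Under the labels used here, miR-375 stood at 4.38 with both factors and 3.27 with Activin A on day 3. On day 5 it stood at 6.27 and 5.61. With both factors the neural share was lower on days 3 and 5. The endodermal and epithelial share was higher on day 5 and lower on day 3. The paper reports a larger share of cells with Sox17 or Foxa2 with both factors than with Activin A alone. These measures were not used to choose a labelling.

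Marker miRNAs differed between the same groups of day 5. The list of 4 neural miRNAs, with miR-219 the brightest in controls, made up 1.04% to 1.33% of summed signal in the controls, 0.108% to 0.125% with Activin A and 0.0537% to 0.0610% with both factors. The list of 6 endodermal and epithelial miRNAs, with miR-200b the brightest, made up 0.201% to 0.203% in the controls, 1.61% to 1.64% with Activin A and 1.66% to 1.73% with both. miR-375 from this list was undetected in the controls of day 5 and stood at 5.61 ± 0.05 (SD, n = 3) with Activin A and at 6.27 ± 0.16 with both. The 5 miRNAs of primed epiblast made up 2.77% to 2.89% in the controls, where miR-302d was the brightest. With miR-302a the brightest, they made up at most 11.2% with Activin A and 9.72% with both, and at least 9.09% on these arrays. The list of ES cells made up 7.97% to 8.41% in the controls, 22.8% to 23.7% with Activin A and 26.5% to 28.3% with both. The list of 5 fibroblast miRNAs, with miR-199a-3p the brightest, made up 0.0446% to 0.0501% in the controls, 0.0315% to 0.0471% with Activin A and 0.0905% to 0.0958% with both. Of its defining members miR-143 was undetected in the controls and stood at 3.12 ± 0.35 (SD, n = 3) with Activin A and 3.44 ± 0.40 with both, and in these groups miR-145 was detected on 1 Activin A array only. The part of a different mixture of cells in the lower levels of miR-709, miR-685 and miR-721 was not tested.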

How the data were processed

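Each array's deposited intensity values, per the file headers, came from Agilent Feature Extraction 10.7.3.1 (9.5.3.1 in the submitters' notes), which summarised background-subtracted spots to a total gene signal with a deposited detection flag of 0 or 1. The authors also deposited a processed table on a log2 scale, with column medians of 0.026 to 0.779, whose centring is not stated, and which served as an alternative. No column of it was left unmapped (0).

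Here the total gene signals of 39 arrays were quantile-normalized (limma 3.58.1 in R 4.3.3), given a floor of 2 and taken to log2. Rows entered where detected on at least 2 of 3 arrays of a group in the fit. Groups were compared with limma's lmFit and eBayes on all rows and adjusted by the Benjamini-Hochberg method. The control groups and ES cells were compared within the fit of all 39 arrays, the treatments within the 12 arrays of a day. A row was called at an adjusted p under 0.05 and over 2-fold, or in the 13-group F-test at that p alone. The steps were tested on simulated data. Figures were drawn with Python 3.11.15, pandas 2.3.3 and matplotlib 3.10.9. Of the spots that are not controls, none was saturated (0 of 13000 on each array), and the median local background was 35.0 to 42.0. Sequences were matched by exact name to RefSeq's table.

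All members were named once. Every array's value was given for members called and detected on all arrays of both groups, and bounds for called members undetected on all 3 arrays of a group. Each bound takes the bright group's mean over the dim group's mean of the lowest detected level on each array. It holds only if the undetected row lay no higher than that level, which a flag set for each row does not ensure. Members, marker lists and rules were chosen with earlier results of these data known. miR-714, miR-720 and other values outside the rule were named after they were seen.

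The alternatives were scaling to the 75th percentile over rows detected on all arrays or over all rows, quantiles from rows that are not members, quantile normalization within a day, normexp with offset 50 on median spot signals, other floors (1 before normalization, 8), other filters, the processed table, one-way ANOVA as in the methods, slide or replicate number as a block, 1 fit of all arrays for the treatments, and leaving out each array. The processed table with its columns matched to arrays, quantile normalization of log2 signals, the day 3 slide block without the combined arrays, and the comparison of both factors with Activin A were added after seeing the data.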

Additional observations from a re-analysis of the deposited data

Results flagged for a closer look

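In 3 members the effect of a treatment differed between day 3 and day 1 by limma's test of that difference, adjusted over all rows of the fit of 39 arrays, at an adjusted p under 0.05 and over 2-fold. With Wnt3a 2 of 20 members passed, where 5.09% of 373 rows did, with Activin A 1, where 10.2% did, and with both factors 2, where 14.5% did. Between day 5 and day 3 limma gave 0 members for Wnt3a, Activin A and the combination, where 2.14%, 9.92% and 14.2% of rows passed, and 1 member for each at an unadjusted p under 0.05, where 16.1%, 28.7% and 37.8% of rows lay. For miR-709, the day 3 effect minus the day 1 effect was -1.05 ± 0.20 (SE) under Activin A (adjusted p = 3.18e-04) and -1.17 under the combination (adjusted p = 6.02e-05). On day 1 miR-709 stood between 11.43 and 11.75 in the controls and in these treatments. The combined arrays of day 3 shared no slide with the day 3 controls, so slide and treatment cannot be told apart in the value for the combination. For miR-718 the difference was 2.84 ± 0.89 with Wnt3a (adjusted p = 0.0426) and 3.03 with both factors (adjusted p = 0.0133), and it rests on the day 1 controls, the only arrays of the 3 groups that detected it that day. The sizes are set by the lowest signal allowed. On day 1 the mean of miR-718 was at least 1.57-fold lower with Wnt3a and at least 1.5-fold lower with both. The groups overlapped at the limit of detection. Those controls lay on another slide than the Wnt3a and combined arrays of day 1. For miR-702 the difference was -3.18 ± 1.01 with Wnt3a (adjusted p = 0.0448). It was detected on 1 control array of day 1 and on all 3 Wnt3a arrays, at 5.33 ± 0.27 (SD, n = 3), which lay on another slide, so this size too is set in part by the lowest signal allowed. With slide as a block in the fit of day 1, miR-718 differed from the control by -1.78 with Wnt3a and with both factors (adjusted p = 0.703 and 0.619). The part of the slide in the difference of miR-702 was not tested.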

How the results depend on the processing

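The count over 13 groups was 18 with each array left out in turn and 16 with slide as a block. Scaled to the 75th percentile over detected rows, treatments at day 5 gave 8 members and both factors against Activin A on day 3 gave 1. Over all rows the treatments gave 0, 1 and 2 on days 1, 3 and 5. With normexp, whose offset of 50 narrows differences of dim rows by construction, the control comparisons gave 0, 2 and 0, the treatments 0, 0 and 1, and both factors against Activin A on day 5 gave 0. Day 3 gave 1 member, miR-709, with a floor of 1 before normalization, a floor of 8, no filter, ANOVA, 1 fit of all arrays, and slide as a block without the combined arrays. Day 1 gave 2 members with no filter and with the processed table as named or matched, 4 with 1 fit of all arrays, and 0 with ANOVA or slide as a block. Both factors against Activin A on day 5 gave 0 with a floor of 8, slide as a block, or 1 fit. miR-702 from day 1 to day 3 turned to -0.10 with slide as a block. Unless named, the cause was not tested.

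Leaving out 1 array at a time, day 1 against ES gave 7 to 8 members, day 3 against day 1 10 to 13, day 5 against day 3 2 to 3, and the treatments 0 to 2, 1 to 3 and 4 to 6. Both factors against Activin A gave 0 to 1, 0 to 0 and 1 to 1. The day 1 count was 0 when any 1 of the Wnt3a or combined arrays was left out, 0 without control replicate 1 or 3, and 2 without control replicate 2. The day 3 count was 1 without Wnt3a replicate 1 or 3, combined replicate 2, or Activin A replicate 1 or 3.

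Replicate numbers did not pair the arrays: over 143 rows detected on all arrays, 73 of 234 pairs with the same number had a correlation of deviations over 0.1 (median -0.006), and 17 of 39 arrays were closest to their own number. With replicate number as a block, the counts were 18, 7, 12 and 2, and 0, 1 and 4 for the treatments.

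With slide as a block, day 5 against day 3 in the controls and the combined arrays of day 3 could not be fitted. Levels near the floor have no order, signals of dim rows lie close to background, and quantile normalization fixes the values of bright rows by rank, which limits their spread.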
